A study of Mus musculus with 6 samples.

Results

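The genes described here are 10 inhibitory and checkpoint immune receptor genes, *Lilrb4a*, *Havcr2*, *Lag3*, *Vsir*, *Cd22*, *Cd33*, *Cd274*, *Cd300lf*, *Cd84* and *Cd48*, out of 53746 genes counted in the mouse cerebellum. They were selected on their RNA counts in the same 6 cerebella that are compared here, so their differences are a description, and the calls that the fit across all genes gave them are given with nothing read from them. The mice, all 2 months old, were 3 of the genotype *N153S* LSL/LSL *Pcp2-cre* (Pcp2-cre below) and 3 *N153S* LSL/LSL controls. Both genotypes carry the *Sting1* N153S allele behind a LoxP-Stop-LoxP cassette, and only the Pcp2-cre mice carry the *Pcp2-cre* driver, which turns the allele on in Purkinje cells, the output neurons of the cerebellar cortex. Mice 1 and 2 of each genotype are males and mouse 3 is a female. Each library came from poly A RNA of the cerebellum, so every value mixes all cell types of the tissue.

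Inhibitory receptors restrain immune cells when they bind their ligands. Many carry an immunoreceptor tyrosine-based inhibitory motif (ITIM) in the cytoplasmic tail, which recruits phosphatases such as SHP-1, the product of *Ptpn6*, and SHIP1, the product of *Inpp5d*. Checkpoint receptors such as LAG-3 and TIM-3 are best known from T cells, and in the brain several of these receptors are found on microglia, the resident macrophages.

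The libraries of control mice 1, 2 and 3 held 8151391, 6809768 and 10178218 counts in total, and those of Pcp2-cre mice 1, 2 and 3 held 7565899, 8572674 and 6733178. Several of the receptor genes had fewer than 10 counts in a library, which limits the precision of their values. *Sting1*, the targeted gene, had 186, 183 and 264 counts in controls and 337, 296 and 240 in the Pcp2-cre mice. Scaled to library size, every Pcp2-cre mouse lay above every control, and these gene totals do not separate the mutant from the wild type transcript. The libraries differed in choroid plexus RNA. *Ttr*, the most abundant choroid plexus marker, had 5169, 6896 and 31 counts in controls and 32, 59 and 415 in the Pcp2-cre mice. Control mice 1 and 2 were thus far above the other 4 mice, control mouse 3 included.

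Of the 10 receptor genes, 9 had enough counts for the fit across all genes and 7 were higher in Pcp2-cre mice by the study's thresholds, an adjusted p of at most 0.05 (edgeR quasi-likelihood test, Benjamini-Hochberg over all 16961 genes that passed) together with a log2 fold change no smaller than 0.5. In the same comparison 1.37% of the genes tested were higher and 1.79% were lower by these thresholds. The 7 genes were *Lilrb4a*, *Cd33*, *Havcr2*, *Lag3*, *Vsir*, *Cd84* and *Cd48*. *Cd274* and *Cd300lf* did not meet the thresholds, and *Cd22* had too few counts for the test. In 8 of the 10 genes, *Cd22* among them, every Pcp2-cre mouse lay above every control in CPM, the counts scaled to the effective library size. Of all genes tested, 10.8% were separated in that direction and 11.4% in the other. Because the genes were chosen with this comparison known, nothing is read from these counts. The median log2 fold change of the 9 receptor genes was 1.48, beside 0.0045 for all genes tested. *Lilrb4a* and *Cd48* passed the filter through the Pcp2-cre mice alone. The number of receptor genes above the thresholds was also 7 without control mice 1 and 2 and with the choroid plexus markers as a covariate, both chosen after the data had been seen. Without control mice 1 and 2 only control mouse 3, a female, is left, and it is assumed to vary as the Pcp2-cre mice do, since these alone give the spread. That fit is thus no check of the calls, here and wherever it is named. The choroid plexus covariate was high in control mice 1 and 2 only. It goes largely with genotype, so its fit cannot separate the 2 either. In RNA from whole tissue, more cells of a type and more RNA per cell cannot be told apart.

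**Figure D1:**
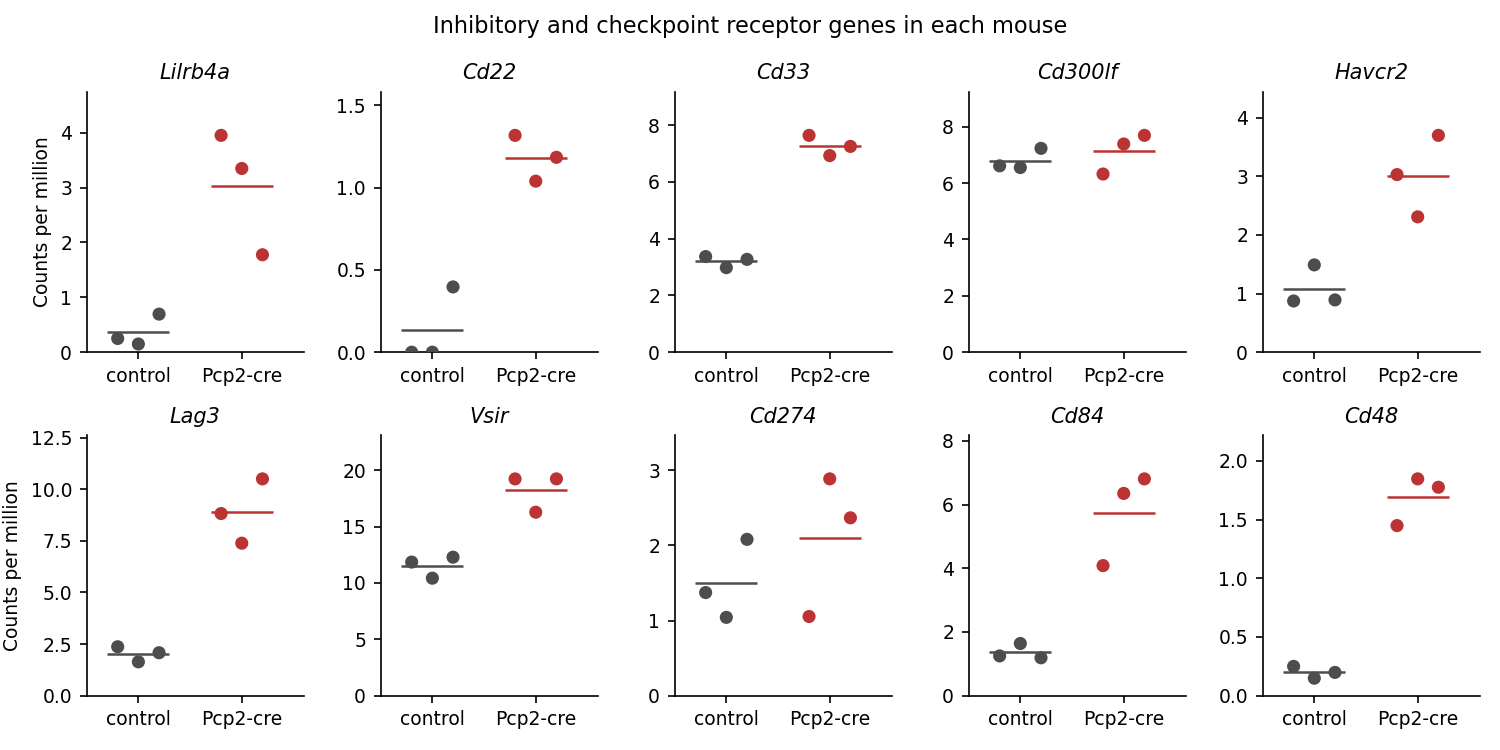
CPM (vertical axes, from 0) of each receptor gene in 3 control mice (grey) and 3 Pcp2-cre mice (red), with points in the order of mice 1, 2 and 3 and lines at the group means. The groups overlap for *Cd300lf* and *Cd274* and are separate for the other 8 genes.

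*Lilrb4a* encodes an ITIM receptor of myeloid cells that binds apolipoprotein E and fibronectin. It lies on chr10:51367027-51372707 (GRCm39, plus strand) and had 2, 1 and 7 counts in controls and 30, 29 and 12 in the Pcp2-cre mice. The groups did not overlap, and Pcp2-cre mouse 3 was the lowest of its group in counts. Its log2 fold change was 2.89 (SE 0.44), and it was 3.81 without control mouse 3, 1.92 with the choroid plexus markers as a covariate and 2.13 without control mice 1 and 2. With the counts summed over each group the ratio was 7.66, with a 95% interval from counting error alone of 3.93 to 16.7. In the deposited FPKM values, which are scaled to gene length and library size, *Lilrb4a* was at 0.337, 0.173 and 0.276 in the control mice and at 2.65, 1.73 and 3.21 in the Pcp2-cre mice. Pcp2-cre mouse 3 was the highest of its group on this scale, so the order within the group depended on the table while the separation of the groups did not. The Gencode annotation places 35.1% of the exon bases of *Lilrb4a* also in exons of *Gm49339*, a gene on the same strand that had 0 counts in all 6 mice. Of all 100-base windows of its transcripts, 34.6% occur unchanged in transcripts of another gene, among them *Lilrb4b*, so the counts of *Lilrb4a* are uncertain. *Gm40645*, which shares 6.45% of its exon bases on the opposite strand, had 0 counts in every control and 9, 5 and 3 in the Pcp2-cre mice. The neighbouring paralog *Lilrb4b* had 0, 0 and 4 counts in controls and 9, 4 and 7 in the Pcp2-cre mice, too few for the filter.

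*Cd22* and *Cd33* encode lectins that bind sialic acid. *Cd22*, best known as an inhibitory receptor of B cells, lies on chr7:30564827-30579767 (minus strand). It had 0, 0 and 4 counts in controls and 10, 9 and 8 in the Pcp2-cre mice. All Pcp2-cre mice were above control mouse 3, the only control with a count, and the ratio of the summed counts was 7.28 with a 95% counting interval of 2.54 to 28.6. *Cd33*, a receptor of myeloid cells, lies on chr7:43173634-43193875 (minus strand). It had 27, 20 and 33 counts in controls and 58, 60 and 49 in the Pcp2-cre mice. The groups were well apart and each was tight, at 3.21 ± 0.20 CPM (SD, n = 3) in the control mice and 7.27 ± 0.36 CPM (SD, n = 3) in the Pcp2-cre mice. The log2 fold change of *Cd33* was 1.17 (SE 0.19).

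*Cd300lf* encodes a receptor of myeloid cells for lipids such as phosphatidylserine and lies on chr11:115007040-115024818 (minus strand). It had 53, 44 and 73 counts in controls and 48, 64 and 52 in the Pcp2-cre mice. The groups overlapped, with Pcp2-cre mouse 1 below every control at 6.32 CPM. The log2 fold change was 0.06 (SE 0.16), and it was -0.02 when control mice 1 and 2 were left out. At 170 counts in the control group and 164 in the Pcp2-cre group, the ratio after scaling to library size was 1.04 with a 95% counting interval of 0.835 to 1.3.

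*Havcr2* encodes TIM-3, a checkpoint receptor of T cells and myeloid cells that binds galectin-9. It lies on chr11:46345673-46374149 (plus strand) and had 7, 10 and 9 counts in controls and 23, 20 and 25 in the Pcp2-cre mice. The 2 groups were separate, with a log2 fold change of 1.48 (SE 0.31). The call of *Havcr2* was lost with DESeq2 (log2 fold change 1.49) and on both FPKM scales.

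The promoters of 8 of the 10 receptor genes were found in the RefSeq table of build GRCm38.p6, which holds 250 bases before and 50 after each gene's start. *Lilrb4a* and *Lag3* were not in it. Those of *Havcr2* and *Cd300lf* are shown because both hold the letters GAGGAAGT close to the start while 1 gene differed between the groups and the other overlapped. The *Havcr2* window is chr11:46454681-46454980 on the plus strand and the *Cd300lf* window chr11:115133943-115134242 on the minus strand, both in GRCm38.p6. Capitals mark GAGGAA, a core bound by PU.1, and GGAAGT, a core bound by ETS factors, on either strand. The motifs overlap in GAGGAAGT.
*Havcr2*: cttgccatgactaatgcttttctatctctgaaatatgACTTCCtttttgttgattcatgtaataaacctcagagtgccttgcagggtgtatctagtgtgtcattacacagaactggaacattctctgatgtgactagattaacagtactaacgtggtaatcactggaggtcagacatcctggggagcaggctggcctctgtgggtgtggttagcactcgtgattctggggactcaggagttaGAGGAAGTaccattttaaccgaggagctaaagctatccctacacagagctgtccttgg
*Cd300lf*: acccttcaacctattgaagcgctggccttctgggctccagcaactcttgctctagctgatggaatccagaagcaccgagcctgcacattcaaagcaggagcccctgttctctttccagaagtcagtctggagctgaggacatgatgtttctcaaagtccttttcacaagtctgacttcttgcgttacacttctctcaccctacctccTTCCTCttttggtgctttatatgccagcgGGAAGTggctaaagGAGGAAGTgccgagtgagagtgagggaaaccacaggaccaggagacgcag
GAGGAA was in 4 of the 8 promoters (*Havcr2*, *Cd33*, *Cd300lf* and *Cd84*) and in 28.3% of all 32851 promoters in the table. GGAAGT was in 5 of the 8 (*Havcr2*, *Vsir*, *Cd33*, *Cd300lf* and *Cd48*) and in 23.8% of all. TGANTCA, an AP-1 motif, was in 2 of the 8 (*Havcr2* and *Cd84*) and in 7.81% of all. GAAANNGAA, a motif of interferon response elements, was in 3 of the 8 (*Cd274*, *Cd300lf* and *Cd84*) and in 8.56% of all, and with 1 more A at its end it was in 0 of the 8 and in 3.44% of all. The STAT motif TTCNNNGAA and the NF-kB motif GGGANTTTC were in 0 of the 8 and in 8.3% and 1.11% of all. All motifs were searched on both strands. These matches describe the letters in the windows and were not tested for binding.

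*Lag3* encodes a CD4-related receptor that binds MHC class II and lies on chr6:124881320-124888765 (minus strand). It had 19, 11 and 21 counts in controls and 67, 64 and 71 in the Pcp2-cre mice. The lowest Pcp2-cre mouse was far above the highest control, and the log2 fold change was 2.10 (SE 0.22). None of its 100-base transcript windows occur in another gene.

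*Vsir* encodes VISTA, a checkpoint protein of myeloid cells that acts as receptor and ligand, and lies on chr10:60182630-60208463 (plus strand). It had 95, 70 and 124 counts in controls and 146, 141 and 130 in the Pcp2-cre mice. With the most counts of the 10 genes it had the smallest standard error, and its log2 fold change of 0.64 (SE 0.11) was the smallest of the 7 genes above the thresholds. In CPM the control mice were at 11.9, 10.4 and 12.3 and the Pcp2-cre mice at 19.2, 16.3 and 19.2, without overlap.

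*Cd274* encodes PD-L1, the ligand of the checkpoint receptor PD-1, and lies on chr19:29344529-29365495 (plus strand). It had 11, 7 and 21 counts in controls and 8, 25 and 16 in the Pcp2-cre mice. Pcp2-cre mouse 1 was within the range of the control mice at 1.05 CPM, so the groups overlapped. Of its exon bases 14.2% lie also in exons of *Gm36043* on the opposite strand, which had 2, 1 and 7 counts in controls and 4, 4 and 11 in the Pcp2-cre mice. Exons of *Plgrkt*, also on the opposite strand, hold 5.37% of them. *Plgrkt* had 132, 108 and 139 counts in controls and 132, 139 and 104 in the Pcp2-cre mice. In addition 10.5% of the 100-base transcript windows of *Cd274* occur in another gene, so the counts of *Cd274* are uncertain too. The log2 fold change was 0.44 (SE 0.35), and the ratio of summed counts of 1.36 had a 95% counting interval of 0.872 to 2.12. Single mice moved this log2 fold change from 0.11 (without Pcp2-cre mouse 2) to 0.79 (without control mouse 3), and it was 0.03 without control mice 1 and 2. *Pdcd1*, the gene of PD-1, had 0, 0 and 2 counts in controls and 7, 5 and 6 in the Pcp2-cre mice. All Pcp2-cre mice were higher than the controls, with a ratio of 9.71 and a wide counting interval of 2.32 to 86.3, but *Pdcd1* did not pass the filter. *Cd80*, which also binds PD-L1, had a log2 fold change of -0.08 (SE 0.25, edgeR adjusted p = 0.917) and overlapping groups.

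*Cd84* and *Cd48* belong to the SLAM family of receptors on blood cells. Both lie on chromosome 1, *Cd84* on chr1:171667263-171720036 and *Cd48* on chr1:171509573-171532826 (both plus strand), next to the family member *Ly9* on chr1:171416173-171434978 (minus strand). *Cd84*, which binds itself on other cells, had 10, 11 and 12 counts in controls and 31, 55 and 46 in the Pcp2-cre mice. The control mice were alike and Pcp2-cre mouse 1 was the lowest of its group, still above every control. The log2 fold change of *Cd84* was 2.09 (SE 0.27). *Cd48*, the ligand of CD244 and CD2, had 2, 1 and 2 counts in controls and 11, 16 and 12 in the Pcp2-cre mice. It was below the floor of 3 counts in every control, so its log2 fold change of 2.98 (SE 0.48) is imprecise, and the ratio of 8.41 had a 95% counting interval of 3.31 to 27.3. The call of *Cd48* was lost on log2(FPKM + 0.1), at 2.21. *Ly9* had 0, 2 and 3 counts in controls and 18, 19 and 24 in the Pcp2-cre mice, a log2 fold change of 3.62 (SE 0.50, edgeR adjusted p = 2.94e-05, higher in 3 of 3 Pcp2-cre mice), and a ratio of summed counts of 13.2 with a 95% counting interval of 5.34 to 42.0. No control mouse reached the count filter for *Ly9*, which passed through the Pcp2-cre mice alone, so it had to differ and its fold is imprecise. *Ly9* was 1 of 2 tested genes in the list of other SLAM genes and adaptors. *Sh2d1a*, the gene of the adaptor SAP, passed the adjusted p but not the fold threshold at 0.23 (SE 0.069, edgeR adjusted p = 0.0473), and 25% of its exon bases lie also in exons of *Tenm1* on the opposite strand. Its 313 to 472 counts stood beside deposited FPKM values of 0.019 to 0.0722, so the counts of *Sh2d1a* are uncertain. The receptors of CD48 were hardly detected, with *Cd244a* at 0 in all control mice and at 1, 2 and 1 counts in the Pcp2-cre mice and *Cd2* at 1 count in 1 mouse.

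Per length, the order of the receptor genes differed between the genotypes. In the control mice *Vsir* was first with 1.96 ± 0.12 FPKM (SD, n = 3) and *Cd300lf* next with 1.59 ± 0.035 FPKM (SD, n = 3), and these ranges did not overlap. *Lag3* and *Cd33* followed at means of 0.589 and 0.523 FPKM and overlapped each other. The means of *Havcr2*, *Cd274*, *Cd84*, *Lilrb4a* and *Cd48* lay between 0.354 and 0.181 FPKM, each overlapping its neighbour, and *Cd22* was last. In the Pcp2-cre mice *Lag3* was first with 3.33 ± 0.20 FPKM (SD, n = 3), overlapping *Vsir* at 3.22 ± 0.22 FPKM (SD, n = 3). *Lilrb4a* had moved from the eighth place to the third with a mean of 2.53 FPKM, and its wide range overlapped both *Vsir* and *Cd300lf*. *Cd300lf*, *Cd84*, *Cd33*, *Cd48* and *Havcr2* followed between 1.78 and 0.887 FPKM. *Cd274* and *Cd22* were at the end of the order at 0.558 and 0.26 FPKM, each apart from the gene before it.

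**Figure D2:**
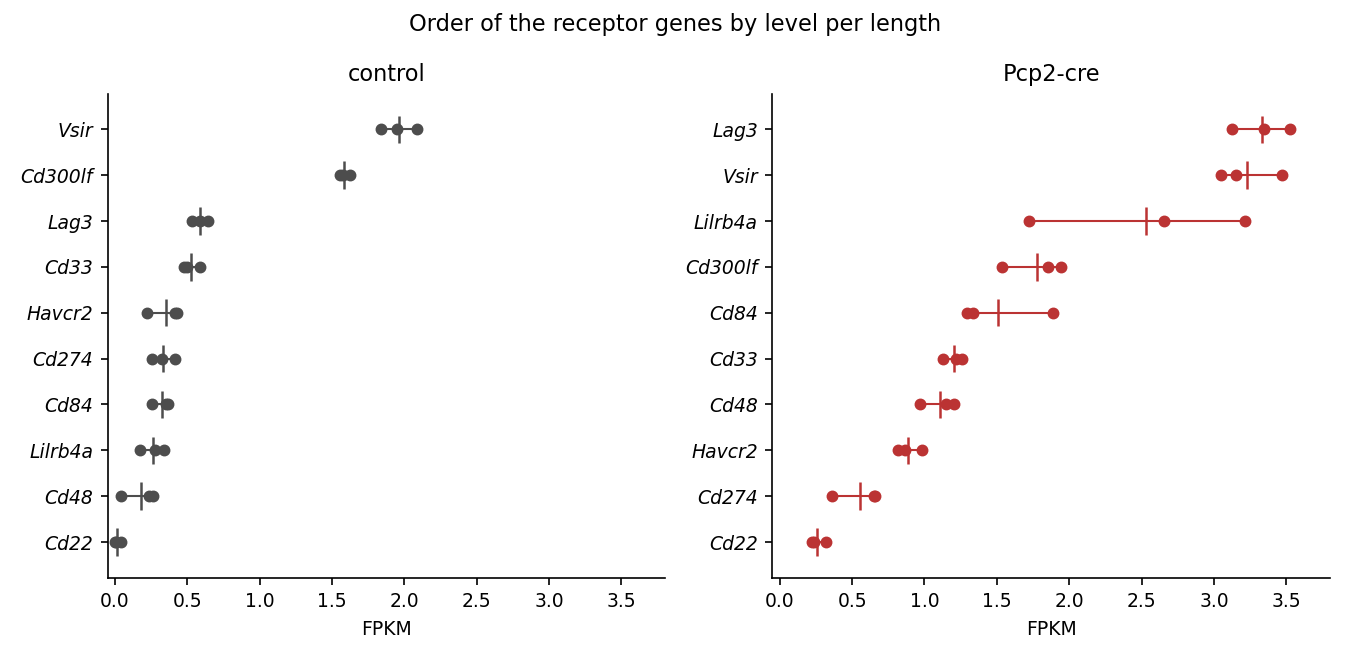
FPKM (horizontal axis) of the receptor genes in control mice (left) and Pcp2-cre mice (right), in the order of their group means. Points are mice, horizontal lines the range and vertical ticks the mean of 3 mice, and *Lag3* goes from a mean of 0.589 to 3.33 FPKM.

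Around the receptors, 100 other genes of their pathways were listed, of which 50 passed the filter. By edgeR with Benjamini-Hochberg adjustment over all genes, 13 of the 50 were higher and 0 were lower at the thresholds. Of all genes tested, 1.37% were higher and 1.79% were lower, which is also the background for each list below. The lists were chosen with earlier results of these data known, so their counts are a description. The median log2 fold change of the 50 was 0.13. Of the 13, *Ly9* and *Cd300c2* passed the filter through the Pcp2-cre mice alone and so had to differ, and 11 of the other 48 were higher. At an unadjusted p under 0.05 and any fold change, edgeR gave 2 genes as lower, and DESeq2 called 0 lower at the thresholds. The count of higher genes was 10 with the choroid plexus markers as a covariate and 12 without control mice 1 and 2, with 1 control left. *H2-D1*, an MHC class I gene, passed the adjusted p alone, with a log2 fold change of -0.31 (SE 0.050, edgeR adjusted p = 0.000229), and 24.2% of its exon bases lie also in exons of *5430410E06Rik* on the opposite strand.

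Among the ligands and partners of the receptors, 4 of the 15 tested were higher. *Lgals9*, the gene of galectin-9, had 36, 27 and 37 counts in controls and 48, 56 and 47 in the Pcp2-cre mice, with a log2 fold change of 0.70 (SE 0.18, edgeR adjusted p = 0.0183). All Pcp2-cre mice were above the controls in CPM, but the call of *Lgals9* was lost in 6 of 16 alternatives. These were DESeq2, log2(FPKM + 1), the choroid plexus covariate and the fits without control mouse 3, without Pcp2-cre mouse 2 or without Pcp2-cre mouse 3. Over the 16 the log2 fold change of *Lgals9* ranged from 0.45 to 0.84 and its adjusted p from 0.0124 to 0.23. *Lgals3*, the gene of galectin-3, a ligand of LAG-3, had a log2 fold change of 1.62 (SE 0.25, edgeR adjusted p = 0.000142). *Apoe*, a ligand of LILRB4, rose from 4239, 3997 and 5374 counts to 6391, 7157 and 6153 (log2 fold change 0.64, edgeR adjusted p = 3.37e-09). *Selplg*, the gene of PSGL-1, a partner of VISTA, had a log2 fold change of 0.82 (SE 0.18, edgeR adjusted p = 0.00381), and its call was lost in 4 of 16 alternatives. These were the fit without Pcp2-cre mouse 2, the choroid plexus covariate and both FPKM scales, and over the 16 the log2 fold change of *Selplg* ranged from 0.66 to 0.95 and its adjusted p from 0.000124 to 0.206. The MHC class II genes *H2-Aa*, *H2-Ab1* and *H2-Eb1*, whose products bind LAG-3, did not pass the test and had log2 fold changes of 0.17, -0.21 and -0.67. Their groups overlapped in each case.

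Of the other ITIM receptors, 2 of the 9 tested were higher. *Fcgr2b*, the inhibitory Fc receptor, had 10, 13 and 23 counts in controls and 60, 56 and 50 in the Pcp2-cre mice (log2 fold change 1.96, edgeR adjusted p = 3.36e-06). *Lair1*, a collagen receptor, was just above the thresholds at a log2 fold change of 0.53 (SE 0.15, edgeR adjusted p = 0.0284). The call of *Lair1* was lost in 9 of 16 alternatives, namely DESeq2, both FPKM scales, the choroid plexus covariate and the fits without control mouse 1, control mouse 3, Pcp2-cre mouse 2, Pcp2-cre mouse 3 or control mice 1 and 2, with log2 fold changes from 0.45 to 0.62 and adjusted p from 0.0207 to 0.272 over the 16. *Siglecf*, below the filter, had 0, 0 and 2 counts in controls and 9, 12 and 7 in the Pcp2-cre mice. In the list of other sialic acid binding lectins 0 of the 2 tested met the thresholds (1 had an unadjusted edgeR p under 0.05, and DESeq2 called 0). These were *Siglech*, a microglial gene with a log2 fold change of 0.15 (SE 0.19, edgeR adjusted p = 0.766), and *Mag*, a myelin gene at 0.20 (SE 0.044, edgeR adjusted p = 0.00406).

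*Cd300c2* was higher among the 2 other CD300 genes tested, with 7, 4 and 8 counts in controls and 13, 23 and 22 in the Pcp2-cre mice (log2 fold change 1.70, edgeR adjusted p = 0.0025). It passed the filter through the Pcp2-cre mice alone, and its call was lost on both FPKM scales, at 0.92 on log2(FPKM + 1) and 1.73 on log2(FPKM + 0.1). It lies on chr11:114887546-114895068 (minus strand), on the chromosome of *Cd300lf*, which overlapped between the groups. *Cd300a*, the other, passed the adjusted p but not the fold threshold at 0.40 (SE 0.10, edgeR adjusted p = 0.0132). In the list of other checkpoint and costimulatory genes 0 of the 5 tested met the thresholds in either direction (1 had an unadjusted edgeR p under 0.05, and DESeq2 called 0), and 11 of its 23 genes had at most 3 counts in every mouse. Below the filter, *Cd86* had 3, 1 and 3 counts in controls and 7, 24 and 24 in the Pcp2-cre mice, while its receptor *Cd28* had 18, 7 and 12 in the control mice and 5, 6 and 4 in the Pcp2-cre mice. *Cd86*, *Cd28* and *Siglecf* were named after their values had been seen. In all 3 the groups did not overlap, which this choice favoured, so nothing is read from it. Among the 100 listed pathway genes, every Pcp2-cre mouse lay above every control in CPM in 28 and below in 4. Of all genes tested, 10.8% and 11.4% were separated in these directions.

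Of the phosphatases and adaptors that inhibitory receptors recruit, 2 of the 12 tested were higher. *Ptpn6* had 14, 6 and 13 counts in controls and 32, 45 and 51 in the Pcp2-cre mice, a log2 fold change of 2.06 (SE 0.28, edgeR adjusted p = 3.18e-05). *Inpp5d* had 37, 38 and 47 counts in controls and 82, 80 and 79 in the Pcp2-cre mice, a log2 fold change of 1.09 (SE 0.16, edgeR adjusted p = 9.13e-05). Neither gene overlapped between the groups in CPM, and the call of *Inpp5d* was lost on log2(FPKM + 0.1), at 0.85. *Ptpn11*, the gene of the related phosphatase SHP-2 and the most abundant of the list in CPM, had a log2 fold change of 0.01 (SE 0.040, edgeR adjusted p = 0.909). Among the ligands of other inhibitory receptors, 3 of the 6 tested were higher. *Cd24a* had a log2 fold change of 1.15 (SE 0.18, edgeR adjusted p = 0.000147) and *B2m* of 0.66 (SE 0.063, edgeR adjusted p = 2.01e-07). *H2-K1*, an MHC class I gene, was at 0.53 (SE 0.093, edgeR adjusted p = 0.000539) and fell below the fold threshold without control mouse 1, without control mouse 2 or without Pcp2-cre mouse 3, at log2 fold changes of 0.50, 0.49 and 0.45. It was also below that threshold with the choroid plexus covariate, at 0.47, and without control mice 1 and 2, at 0.42. Of its exon bases 26.8% lie also in exons of *Gm53999* on the opposite strand, so its counts are uncertain. *Cd47*, the ligand of SIRPA, was at -0.08 (SE 0.043, edgeR adjusted p = 0.391).

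**Figure D3:**
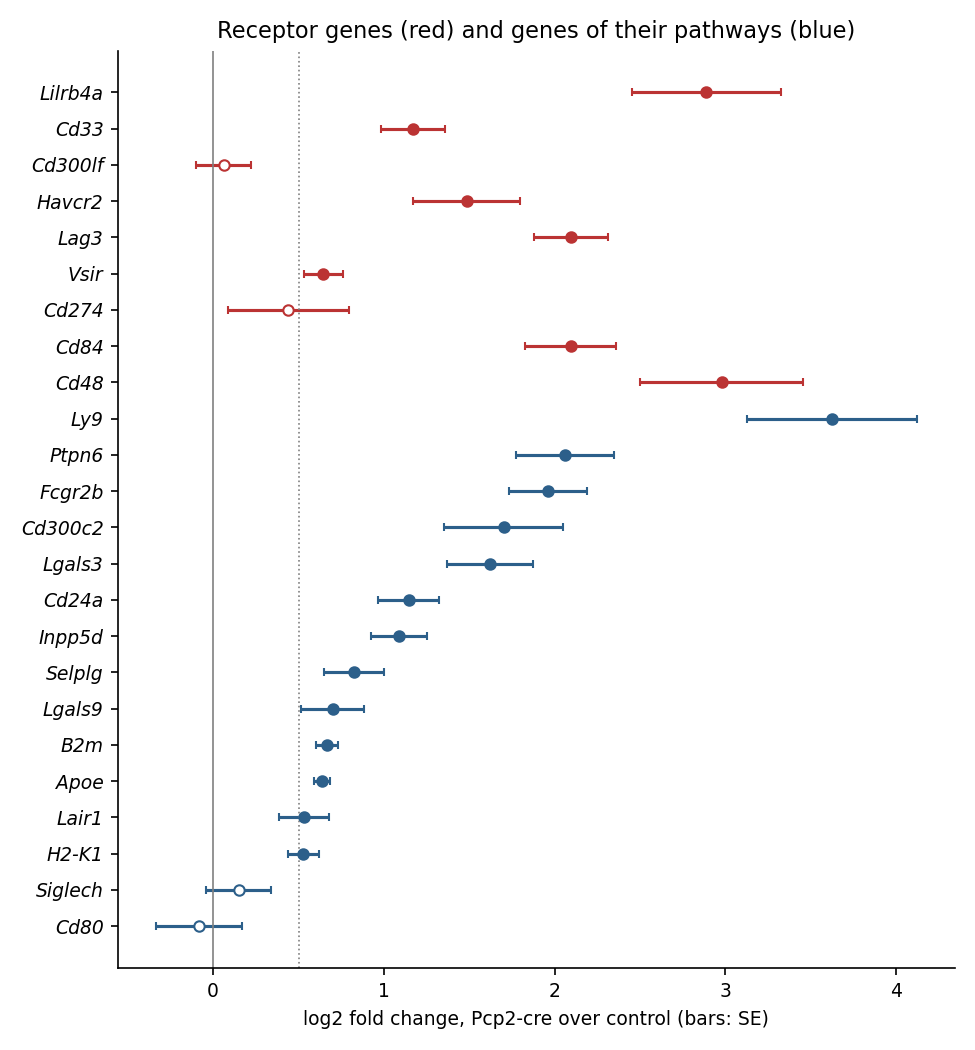
Log2 fold change of Pcp2-cre over control mice (horizontal axis, n = 3 per group) with its standard error for the 9 receptor genes that passed the filter (red, a description) and the named pathway genes (blue). Filled points met both thresholds, the dotted line marks 0.5, and *Ly9*, with at most 3 counts in any control, is farthest to the right at 3.62.

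Microglial genes were higher in the Pcp2-cre mice as well. Of 13 microglial markers, all tested, 10 were higher by edgeR at the thresholds, and the median log2 fold change was 1.33. Of these, *Aif1* passed the filter through the Pcp2-cre mice alone. Their summed level was 122, 117 and 122 CPM in the control mice and 276, 275 and 295 CPM in the Pcp2-cre mice. Genes of resting microglia were on both sides of the thresholds. *P2ry13*, *Olfml3*, *Gpr34*, *Sall1* and *Cx3cr1* were among the higher ones, at log2 fold changes of 1.34, 1.06, 1.85, 0.87 and 1.48. *Tmem119*, *P2ry12* and *Siglech* did not pass the test, with log2 fold changes of 0.06, 0.28 and 0.15. The mean log2 CPM of the 9 receptor genes minus that of the 13 microglial genes was -1.42, -1.56 and -1.46 in the control mice and -1.33, -1.02 and -1.22 in the Pcp2-cre mice. The group means of the receptor genes by themselves differed by 1.51 and those of the microglial genes by 1.22 on this scale. Because the receptor genes were chosen on this comparison, a larger difference in them was favoured by the choice, and nothing is read from it. The part of microglial RNA in the result was not tested.

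**Figure D4:**
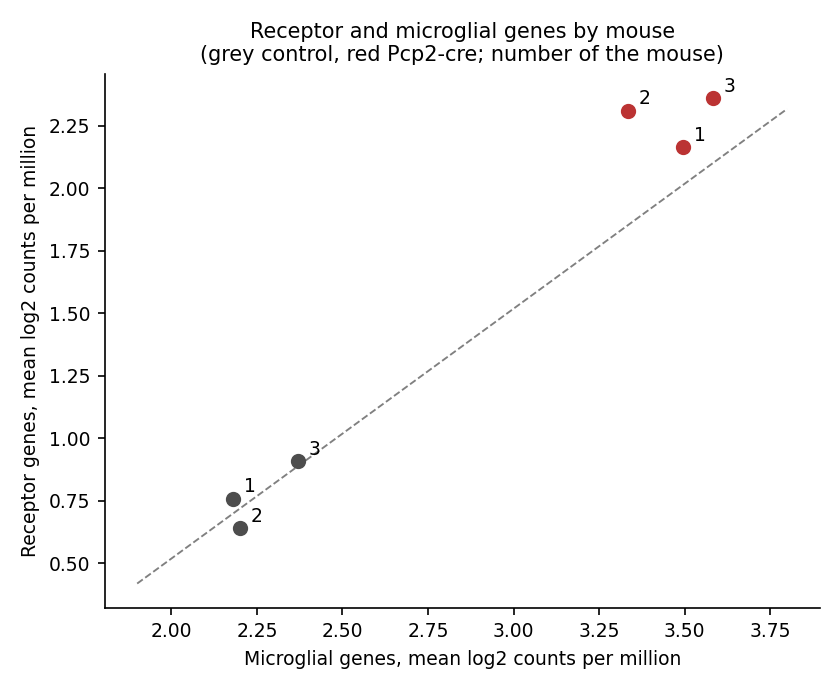
Mean log2 CPM of 13 microglial genes (horizontal axis) and of the 9 receptor genes that passed the filter (vertical axis) in each mouse, control grey and Pcp2-cre red, with the number of the mouse. The dashed line has the mean difference of the control mice, -1.48. The Pcp2-cre mice lie above it, which the choice of the receptor genes on this comparison favoured.

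Of the genes listed as markers of blood-derived immune cells, some that define a cell type were at or near 0. *Cd247*, *Eomes*, *Vcan*, *Zbtb46* and *Flt3* were well above it. Which cells of the cerebellum gave the RNA of these more abundant genes was not tested. No presence, gain or loss of immune cells is therefore read from them. Among the T cell markers *Cd3g* had 0 counts in all mice, *Cd3d* had 1 count in 1 mouse and *Cd3e* had at most 4. *Trac* was detected in every mouse, with 10, 8 and 16 counts in controls and 13, 17 and 10 in the Pcp2-cre mice. Its groups overlapped in CPM. Of the 2 T cell markers tested, *Trac* and *Cd247*, 0 met the thresholds, 0 had an unadjusted edgeR p under 0.05 and DESeq2 called 0. *Trbc2* had 0 counts in every control and 3, 9 and 4 counts in those with the driver, which is at least 1.81-fold higher against a floor of 3 counts per library. The summed T cell list was 36.9, 31.9 and 35.5 CPM in the control mice and 36.7, 35.4 and 39.1 CPM in the Pcp2-cre mice, nearly all of it *Cd247*. Without *Cd247* the sum was 1.37, 1.79 and 2.48 CPM in the control mice and 2.63, 3.92 and 3.25 CPM in the Pcp2-cre mice. These smaller sums did not overlap between the groups, but the separation rests on *Trbc2*. It was at 0 in every control and at 0.395, 1.04 and 0.592 CPM in the Pcp2-cre mice. Without it Pcp2-cre mouse 1 would lie below control mouse 3. With 202 to 333 counts but deposited FPKM values of only 0.0603 to 0.132, the counts of *Cd247* are uncertain. The natural killer cell markers *Nkg7* and *Gzmb* had 0 counts in every mouse, and *Eomes*, which carried the list's 44.7 to 54.4 CPM, did not pass the test. The B cell list summed to 2.23 to 2.48 CPM in the control mice and 2.52 to 3.92 CPM in the Pcp2-cre mice, most of it *Ighm*, which did not pass the test. Of the neutrophil markers 0 passed the filter, *Ly6g* had 0 counts in every mouse, and the list, led by *S100a9*, summed to 1.49 to 3.24 CPM in the control and 1.33 to 4.35 CPM in the Pcp2-cre mice. The mast cell list, led by *Tpsb2*, had no gene above 3 counts and *Ms4a2* at 0. Of the monocyte markers only *Vcan* was tested, at a log2 fold change of 0.26 (edgeR adjusted p = 0.0302), and *Ccr2* had at most 3 counts. The dendritic cell list had *Xcr1* at 0 and *Clec9a* at no more than 3 counts in any mouse. It was carried by *Zbtb46* and *Flt3*, and *Flt3* was lower at a log2 fold change of -0.70 (edgeR adjusted p = 2.19e-06). *Zbtb46*, the most abundant of that list, passed the adjusted p but not the fold threshold at -0.39 (edgeR adjusted p = 1.14e-05), without overlap of the groups. Of the border macrophage markers, 0 of the 5 tested met the thresholds, 0 had an unadjusted edgeR p under 0.05 and DESeq2 called 0. That list, led by *Mrc1*, summed to 13.1, 12.2 and 15.3 CPM in the control mice and 13.8, 18.6 and 16.4 CPM in the Pcp2-cre mice, with overlap.

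Marker RNA of some other cell types of the cerebellum differed as well. Purkinje cell markers were lower in 4 of the 6 tested, and their sum, led by *Itpr1*, fell from 6588, 6477 and 6021 CPM to 3654, 3287 and 3536 CPM. Of the astrocyte and Bergmann glia markers 2 of 6 were higher, with *Gfap* at a log2 fold change of 1.94 (SE 0.056, edgeR adjusted p = 4.43e-15). At the adjusted p and any fold change, 3 were higher and 2 lower. The lower ones were *Slc1a3*, the most abundant, at -0.22 (edgeR adjusted p = 9.95e-05) and *Gdf10* at -0.25 (edgeR adjusted p = 0.00424), both without overlap of the groups. Of the granule cell, oligodendrocyte and endothelial lists, led by *Cbln3*, *Mbp* and *Flt1*, 0 of 5 genes each met the thresholds with edgeR or DESeq2. At an unadjusted edgeR p under 0.05, 2 granule cell, 5 oligodendrocyte and 1 endothelial gene were higher. The choroid plexus list summed to 770, 1198 and 17.1 CPM in the control mice and 8.3, 14 and 70.9 CPM in the Pcp2-cre mice, with 3 of the 3 tested genes lower by edgeR, 1 lower by DESeq2, and no marker at 0 in all mice. The sum set control mice 1 and 2 apart from the rest. *Ttr* and *Kl* overlapped between the genotypes, and *Clic6* did not, lying lower with the driver. The part of these cell types in the receptor values was not tested. The fits with the choroid plexus markers as a covariate are no test of it. That covariate was 3.08 and 3.56 in control mice 1 and 2 and -2.33 to -0.68 in every other mouse. It thus goes largely with genotype.

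**Figure D5:**
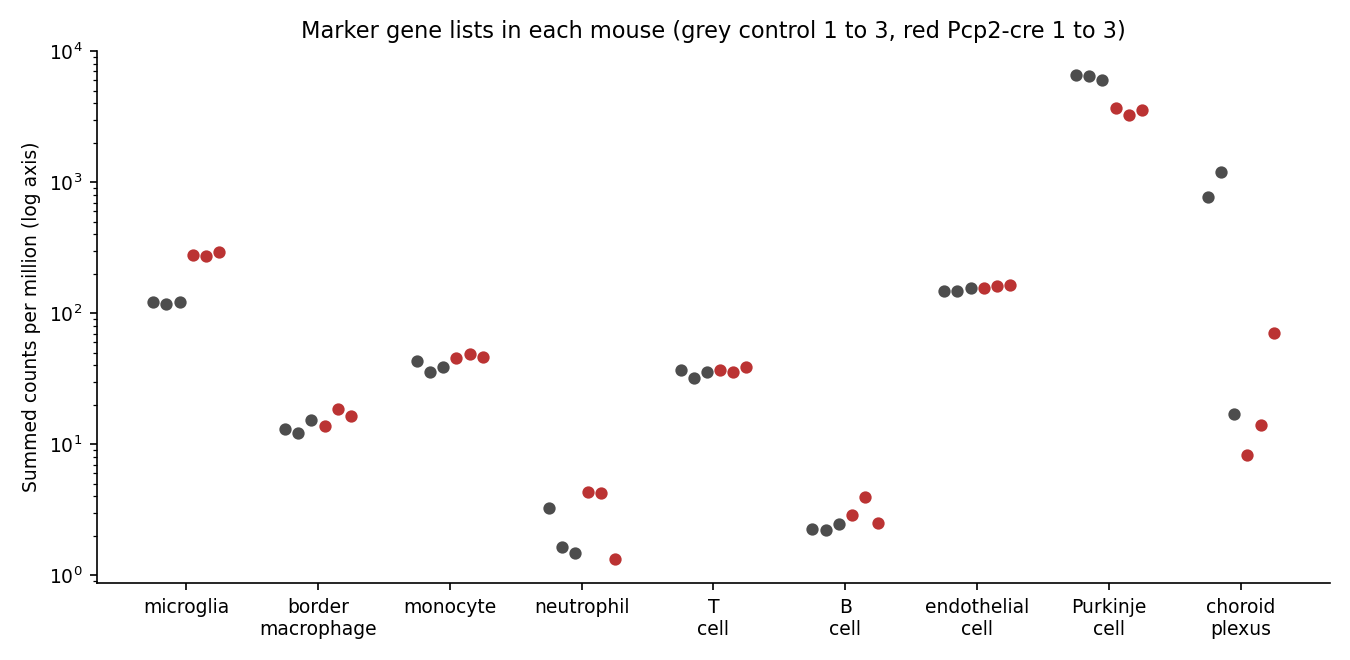
Summed CPM (vertical log axis) of 9 marker lists in control mice 1 to 3 (grey) and Pcp2-cre mice 1 to 3 (red), each point a mouse. The microglial sums of the Pcp2-cre mice (275 to 295 CPM) lie above those of the control mice, and the choroid plexus sums set control mice 1 and 2 apart.

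The 5 genes whose log2 CPM was most like the mean of the 9 receptor genes over the 6 mice were *Atp1b2*, *Laptm5*, *Ptn*, *Gm33489* and *Itgax*, with Pearson correlations of 0.998, 0.998, 0.998, 0.997 and 0.996. The mice fall into 2 separate groups, so these values mostly restate the difference between the genotypes. *Atp1b2*, a sodium pump subunit gene, ranged from 6949 to 10547 counts, *Ptn*, the gene of the growth factor pleiotrophin, from 969 to 1550, and *Gm33489* from 35 to 68. *Laptm5*, a lysosomal gene of blood cells and microglia, ranged from 62 to 324 counts, and *Itgax*, an integrin gene of activated microglia, from 1 to 79 counts. Among the receptor genes themselves, *Cd48* followed the mean of the other 8 most closely, with a correlation of 0.987, and *Cd274* and *Cd300lf* least, at 0.415 each.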

How the data were processed

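RNA of 6 cerebella, 3 per genotype, was analysed from processed tables. Genotype, sex and mouse number came from the labels. The authors aligned paired reads to GRCm39 with STAR and deposited raw counts for 53746 genes. The authors also deposited FPKM values for 55005 genes. The submitters' processing notes name featureCounts and StringTie, while strand use and the handling of reads shared between genes are not given in the sources used here, so overlapping and antisense genes cannot be told apart.

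The counts were fitted across all genes with edgeR 4.0.16 under R 4.3.3 (its filterByExpr filter, TMM factors and quasi-likelihood test) after a test on simulated data, and p-values were adjusted by Benjamini-Hochberg. SE values of log2 fold changes are the absolute log2 fold change divided by the square root of the quasi-likelihood F statistic. Total counts lay between 6733178 and 10178218. Libraries of one genotype differed beyond sampling noise (chi-square per gene 1.35 to 3.39) and none was counted as a duplicate. Intervals are exact conditional binomial intervals at 95% and, like the floor of 3 counts, cover counting error only. Alternatives used DESeq2 1.42.0, and limma 3.58.1 on log2(FPKM + 1) and log2(FPKM + 0.1), where a fold change of a low gene is understated.

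The members and lists were chosen with earlier results of these data known. The text names all 10 receptor genes, up to 6 genes past the thresholds per pathway list by smallest p, 10 paralogs or partners, the 5 genes most like the receptors, and the leading and undetected markers. Other genes given beside them were named after their values had been seen. Gene positions and shared exons were read from Gencode M39 and promoters from RefSeq. *Lilrb4b* was matched by its identifier. A single gene is not reported here.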

Additional observations from a re-analysis of the deposited data

How the results depend on the processing

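The 7 receptor genes above the thresholds kept that call, as the same genes, without a filter on low counts (which added *Cd22*), with DESeq2 size factors, sex as a covariate, a replicate block and each mouse left out. *Havcr2* lost it with DESeq2 (6 genes left), on log2(FPKM + 1) (6) and, with *Cd48*, on log2(FPKM + 0.1) (5). With at least 10 counts in every mouse 4 were left, since *Lilrb4a*, *Havcr2* and *Cd48* were no longer tested. With the fold threshold raised to 1 (log2), 6 receptor genes and 7 listed pathway genes were higher. The median log2 fold change of the receptor genes, 1.48, was 1.79 with DESeq2, 1.78 without the filter, 1.17 with at least 10 counts in every mouse, 0.53 on log2(FPKM + 1), 1.15 on log2(FPKM + 0.1), 1.32 to 1.73 with single mice left out, 1.86 with the choroid plexus covariate and 1.72 without control mice 1 and 2. DESeq2 and the fit without the filter took the median over 10 genes, *Cd22* included, and the minimum of 10 counts over 5, so these medians are over other genes. The last 2 settings, of which the second leaves 1 control mouse, were chosen after seeing the data, and the cause of the shifts over the same 9 genes was not tested. The difference between the groups in mean log2 CPM was larger for the receptor than for the microglial genes by 0.29, and by 0.52 against a shorter list of homeostatic microglial genes, whose mean was higher in the Pcp2-cre mice too, but the choice of the receptor genes on this comparison favoured this. Over all genes, 233 were higher and 304 lower. DESeq2 gave 141 and 226, log2(FPKM + 1) 126 and 155, log2(FPKM + 0.1) 144 and 167, any fold change 507 and 805 (1 of the lower ones a listed pathway gene), and the threshold of 1 gave 142 and 94. Mouse numbers are shared by the genotypes and go with sex, but same-numbered mice did not deviate together throughout (r = 0.065, 0.078 and 0.23 across genes), and control mouse 1 was closest to Pcp2-cre mouse 2. With a replicate block 229 genes were higher and 319 lower, 7 receptor genes and 13 listed pathway genes were higher and 0 lower, and the receptor median was 1.51. Depth limits, among others, *Cd22*, *Cd48*, *Lilrb4a*, *Ly9* and *Pdcd1*, which had at most 7 counts in any control.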
